A study of Mus musculus with 18 samples.

Results

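Wif1, which encodes a secreted inhibitor that binds Wnt proteins, and Ntrk3, which encodes the neurotrophin 3 receptor formerly called TrkC, were followed animal by animal in glomeruli from mice with and without PTIP in podocytes. The 2 genes are measured by 6 of the 58 probe sets in the deposited table, 1 for Wif1 (1425425_a_at) and 5 for Ntrk3 (1425071_s_at, 1425070_at, 1455917_at, 1422329_a_at and the one with the largest difference between genotypes, called the main Ntrk3 probe set here). They were chosen by symbol from a table that the authors had itself selected on the difference between the genotypes, and with that difference known. The genotype difference is therefore given as a description without a test. What was tested is how the genes varied among animals of 1 genotype and whether that variation, or the size of the genotype difference by groups of scan numbers, differed. The relation between the genes was not a criterion of the table, but the authors' limits on variance and adjusted p drew in part on the spread within genotypes.

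Wnt inhibitory factor 1 holds Wnt ligands outside the cell and keeps them from their Frizzled receptors. Ntrk3 is a receptor tyrosine kinase of the neurotrophin family, best known for its part in the survival of sensory neurons and the growth of their axons, and it is also made in forms that lack the kinase. Podocytes are the epithelial cells that cover the glomerular capillaries with interlocking foot processes and form the last layer of the kidney filter. PTIP, the product of Paxip1, is a cofactor of complexes that methylate lysine 4 of histone H3.

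PTIP- mice carried Paxip1 fl/fl or fl/- together with a transgene that drives Cre in late developing and mature podocytes. PTIP+ mice carried the same floxed or floxed and null alleles without the transgene, although their labels also call them wild type. The labels do not say which of the Paxip1 genotypes an animal had, and no animal had Cre with PTIP intact, so deletion of Paxip1 and presence of the transgene cannot be told apart. Mice were killed at 4 weeks of age by the protocol, whereas 1 field of the labels counts up from 1 to 18 months over the 18 animals; the protocol's age is used here.

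RNA came from kidney fractions enriched in glomeruli by sieving, and each of the 8 PTIP+ and 10 PTIP- animals had its own Affymetrix mouse array. Such a fraction holds podocytes beside mesangial, endothelial and some tubular cells. Of 36 marker genes listed for these and other cell types, 10 of them for podocytes, 0 matched a row of the table. Since the table holds only rows that differed between the genotypes, a marker that did not differ could not be in it, and the composition of the fractions was not tested. Values are on the log2 scale after robust multi-array averaging (RMA), so a difference of 1 is 2-fold. Precision is set by how many arrays there are. By the numbers in their scan names the animals form 3 series: series 1 held 3 PTIP+ and 3 PTIP- animals, series 2 held 2 and 4, and series 3 held 3 and 3. The labels do not call these series batches.

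Wif1 ranged from 7.19 to 9.00 in PTIP+ animals, with a median of 7.99, and from 2.95 to 5.94 in PTIP- animals, with a median of 4.02. Every PTIP- value lay below every PTIP+ value, and 1.25 log2 units separated the groups at their closest. The group means were 7.98 ± 0.57 (SD, n = 8) and 4.11 ± 0.94 (SD, n = 10), and the difference fitted by limma with array weights was -4.38 with a standard error of 0.27. It was first in size among the decreases of the 58 probe sets. In a preparation of mixed cells, whether cells of a type were fewer or held less RNA each was not tested here.

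The main Ntrk3 probe set ranged from 8.43 to 9.50 in PTIP+ animals, with a median of 8.95, and from 4.12 to 6.92 in PTIP- animals, with a median of 5.93. The groups were 1.5 log2 units apart at their closest. The fitted difference was -3.10 with a standard error of 0.21, at place 3 among the decreases by size. This probe set was taken as the first measure of Ntrk3 in the comparisons that follow.

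The other Ntrk3 probe sets differed less between the genotypes. Probe set 1425071_s_at ranged from 7.83 to 9.35 (median 8.84) in PTIP+ and from 5.41 to 7.39 (median 6.26) in PTIP- animals, and its groups did not overlap. Probe set 1425070_at ranged from 7.12 to 8.18 (median 7.70) in PTIP+ and from 4.82 to 7.77 (median 5.48) in PTIP- animals. Its groups overlapped through PTIP- replicate 6, whose value was above the PTIP+ median. Probe set 1455917_at ranged from 6.32 to 7.97 (median 7.37) in PTIP+ and from 5.03 to 6.67 (median 5.35) in PTIP- animals, and probe set 1422329_a_at from 5.10 to 7.14 (median 6.14) and from 4.32 to 5.49 (median 5.24). In both, the highest PTIP- values overlapped the lowest PTIP+ values.

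**Figure D1:**
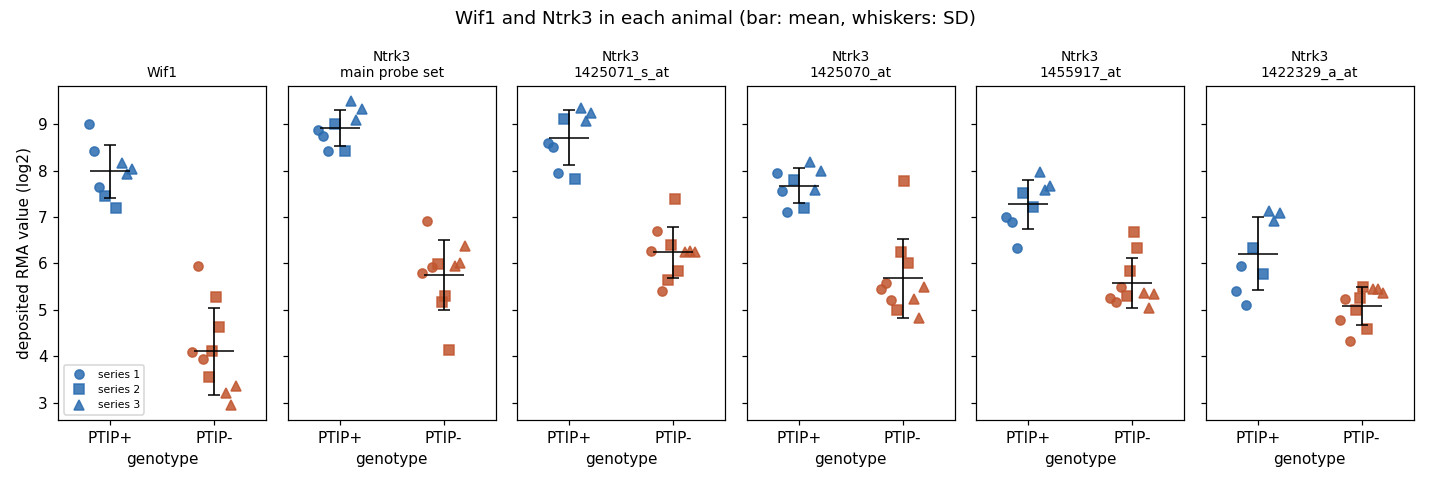
Deposited RMA values (log2, vertical axis) of the 6 probe sets in each PTIP+ (blue, n = 8) and PTIP- animal (orange, n = 10), with the scan number series as circles, squares and triangles; bars are group means and whiskers SDs. Wif1, the main Ntrk3 probe set and 1425071_s_at have no overlap between genotypes, while 1425070_at has 1 PTIP- animal, at 7.77, among the PTIP+ values.

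The fitted differences of these 4 probe sets were -2.73, -2.38, -1.91 and -1.30, with standard errors of 0.22, 0.22, 0.21 and 0.28. They stood at places 5, 7, 9 and 21 among the decreases. Next in size after the smallest of them was Necab3 (1431946_a_at), which encodes a calcium-binding protein of neurons, also at -1.30. By the thresholds of the methods (variance above 0.1, adjusted p of 0.05 or less and a change of at least 2-fold), all 6 probe sets counted as decreased, where 56.9% of the table did. Groups without overlap were found for 3 of the 6, where 17.2% of the table had all PTIP- values below all PTIP+ values. Nothing is read from either count, since the contrast chose the rows. The smallest difference, that of 1422329_a_at, was -0.97 without PTIP+ replicate 8 and -0.85 after centring every array on the median of its 58 values, and so fell short of 2-fold.

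The 5 Ntrk3 probe sets are not 5 separate measures of the gene. Probe sets 1425071_s_at and 1425070_at were built on the same source sequence, while the other 3 have a source sequence each. RefSeq lists 2 curated transcripts for Ntrk3 and 1 for Wif1. Which transcript each probe set reads was not analysed here.

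Signal left in the PTIP- animals was expressed as a percentage of the geometric mean of the PTIP+ animals. Residual Wif1 ran from 3.06% in replicate 9 to 24.2% in replicate 2, with a median of 6.40%. Residual Ntrk3 by the main probe set ran from 3.58% in replicate 7 to 24.9% in replicate 2, with a median of 12.5%. By this probe set replicate 2 was highest for both genes, but the animal with the least Ntrk3 signal was not low in Wif1: replicate 7 kept 9.75% of Wif1, more than all but 2 of the 10. By each of the other 4 probe sets replicate 6 had the most Ntrk3. The least was in replicate 9 by 1425070_at (13.8%) and 1455917_at (21.1%), as for Wif1. By 1425071_s_at (10.1%) and 1422329_a_at (26.9%) it was in replicate 3. Replicate 6, second in Wif1 with 15.3%, kept 8.03% of Ntrk3 by the main probe set and 107% by 1425070_at. Relative to PTIP+ animals of the same series, replicate 6 had the most Wif1, with 24.2% against 18.6% in replicate 2. The 3 animals of series 3 had the least Wif1, between 3.06% and 4.07%, and had 12.6% to 17.1% of Ntrk3 by the main probe set. On the log2 scale these 3 Wif1 values ran from 2.95 to 3.36, where the lowest value of the whole table was 2.28. Whether such low values, their percentages and their order reflect Wif1 RNA or array background was not tested. By the other 4 probe sets the median residual Ntrk3 was 18.2% for 1425071_s_at, 21.8% for 1425070_at, 26.4% for 1455917_at and 51.1% for 1422329_a_at.

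**Figure D2:**
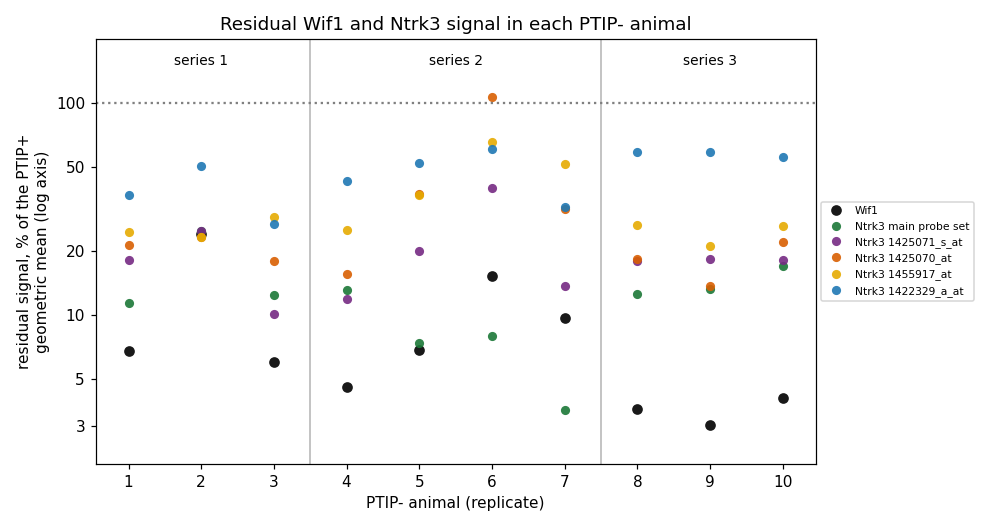
Residual signal in each PTIP- animal (horizontal axis, replicate) as a percentage of the PTIP+ geometric mean, on a log axis, for Wif1 (black) and the 5 Ntrk3 probe sets; vertical lines part the scan number series and the dotted line is 100%. Replicate 2 has 24.2% of Wif1 and 24.9% of Ntrk3 by the main probe set, whereas replicate 7 has 9.75% and 3.58%.

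Whether residual Wif1 and residual Ntrk3 went together was asked over the 10 PTIP- animals. They did not pass the test by the probe set with the largest Ntrk3 difference: Pearson's r of Wif1 with the main probe set was -0.054 (permutation p = 0.880, adjusted p = 0.936) and Spearman's rho was -0.36 (permutation p = 0.312, adjusted p = 0.616). All p-values are two-sided, and those for Wif1 and Ntrk3 were adjusted over 12 relations, 6 measures of Ntrk3 in each genotype. Without replicates 2 and 6, the animals farthest from the median Wif1 value, r was -0.80 (exact permutation p = 0.00794), without replicate 2 alone it was -0.69 (exact permutation p = 0.0387), and without replicate 6 alone 0.045 (exact permutation p = 0.897). The coefficient near 0 over all 10 animals thus rests on replicate 2, without which those with more Wif1 had less of this Ntrk3 signal. That negative relation included the order of the series, in which series 3 was low in Wif1 and series 2 low in the main probe set. The Wif1 values of series 3 were near the lowest of the table, so their order may hold background.

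Other Ntrk3 probe sets gave another picture in the same animals. With 1425070_at, r was 0.61 (permutation p = 0.0601, adjusted p = 0.403) and rho was 0.78 (permutation p = 0.0109, adjusted p = 0.130), and r was 0.75 without replicates 2 and 6 (exact permutation p = 0.0315). With 1425071_s_at, r was 0.51 (permutation p = 0.127, adjusted p = 0.403) and rho 0.44 (permutation p = 0.207, adjusted p = 0.616), but r was -0.27 without the same 2 animals (exact permutation p = 0.503). With 1455917_at, r was 0.46 (permutation p = 0.168, adjusted p = 0.403) and rho 0.39 (permutation p = 0.267, adjusted p = 0.616), and r was 0.83 without them (exact permutation p = 0.00610). With 1422329_a_at, r was -0.086 (permutation p = 0.815, adjusted p = 0.936) and rho -0.23 (permutation p = 0.519, adjusted p = 0.623), and r was -0.72 without them (exact permutation p = 0.0458). The mean of the 5 probe sets gave r = 0.54 (permutation p = 0.108, adjusted p = 0.403) and rho = 0.35 (permutation p = 0.331, adjusted p = 0.616), and r was -0.29 without them (exact permutation p = 0.483). None of the 6 measures passed the adjusted threshold, and their signs differed.

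No series held more than 4 animals of a genotype, too few for a correlation of its own, so both genes were also centred on the mean of their series and paired anew only within series. In PTIP- animals the series-centred r was 0.17 with the main probe set (exact permutation p = 0.653, adjusted p = 0.653). It was 0.67 with 1425070_at (exact permutation p = 0.0162, adjusted p = 0.0324), 0.76 with 1425071_s_at (exact permutation p = 0.0752, adjusted p = 0.113) and 0.76 with the mean of the 5 (exact permutation p = 0.0417, adjusted p = 0.0714). With 1455917_at and 1422329_a_at it was 0.49 and 0.61 (exact permutation p = 0.179 and 0.234, adjusted p = 0.239 and 0.281). Within series, residual Wif1 and residual Ntrk3 thus had positive coefficients by every measure, and the relation passed the adjusted threshold by 1 of the 5 probe sets. That adjusted p depends on the family of 12, in which overlapping measures of Ntrk3 in PTIP+ animals had smaller p. It is therefore weak support for a relation in PTIP- animals. The value for 1425070_at includes replicate 6, which was high in both, and no series-centred value without that animal is given.

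In PTIP+ animals, the pooled relation of Wif1 with the main probe set had r = 0.33 (exact permutation p = 0.429, adjusted p = 0.853) and rho = 0.36 (exact permutation p = 0.389, adjusted p = 0.616), and r was 0.26 without replicates 1 and 5, the farthest from the median of Wif1. With the other 4 probe sets r was 0.28, 0.55, -0.035 and -0.034 in the order above, with exact permutation p from 0.158 to 0.936. Centred on the series, r was 0.73 with the main probe set, 0.63 with 1425071_s_at, 0.86 with 1425070_at, 0.90 with 1455917_at and 0.77 with the mean of the 5. Each of these had an exact permutation p of 0.0139 (adjusted p = 0.0324), the smallest that the 72 arrangements within series can give. These measures overlap, being probe sets of 1 gene and their mean in the same animals, so they are not separate results. Their adjusted p rests on several of them tying at the smallest p. With 1422329_a_at the series-centred r was 0.49 (exact permutation p = 0.514, adjusted p = 0.561). Within each series, then, the PTIP+ animals higher in Wif1 were higher in Ntrk3 by these 4 probe sets, and differences between the series hid this in the pooled values. Series 1 had the highest mean Wif1 (8.37) with the lowest mean of the main probe set (8.69), while series 3 had 8.05 and 9.31.

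**Figure D3:**
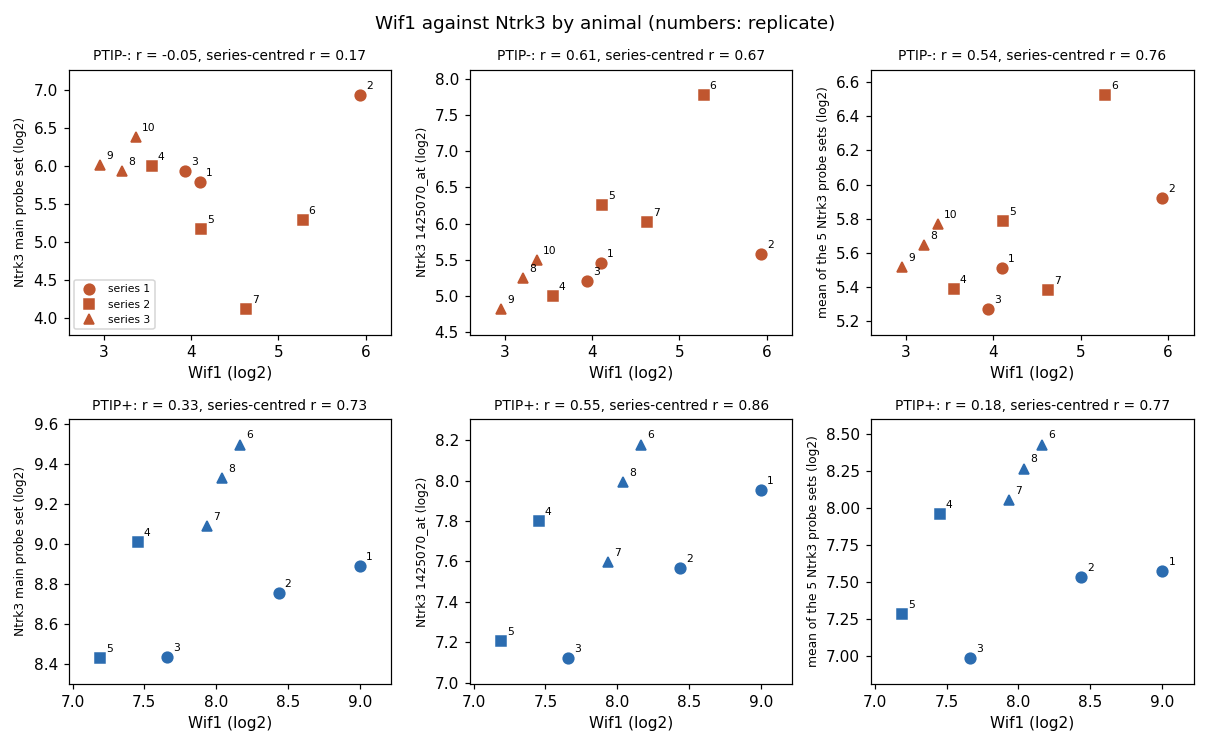
Wif1 (log2, horizontal axes) against 3 measures of Ntrk3 (log2, vertical axes) in PTIP- (top, n = 10) and PTIP+ animals (bottom, n = 8), with replicate numbers and the series as circles, squares and triangles. In PTIP+ animals the points of each series rise from left to right beside each other. The series-centred r with the main probe set, 1425070_at and the mean of the 5 is 0.73, 0.86 and 0.77 in PTIP+ animals. In PTIP- animals it is 0.17, 0.67 and 0.76.

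Array level is given beside these relations without a test, since every row was selected on genotype. The median of the 52 other probe sets of the table had r = 0.49 with Wif1 and 0.37 with the main probe set over the PTIP+ arrays, and 0.35 and 0.70 over the PTIP- arrays. With the other 4 Ntrk3 probe sets its r lay between 0.0041 and 0.28 in PTIP+ and between -0.49 and 0.18 in PTIP- animals. With every array centred on the median of its 58 values and the series centred as well, r of Wif1 with the main probe set was 0.69 in PTIP+ (exact permutation p = 0.0556) and -0.23 in PTIP- animals (exact permutation p = 0.688). With 1425070_at it was 0.84 (exact permutation p = 0.0972) and 0.58 (exact permutation p = 0.124). In PTIP+ animals it was 0.60 with 1425071_s_at (exact permutation p = 0.0139), 0.74 with the mean of the 5 (exact permutation p = 0.0417), 0.91 with 1455917_at (exact permutation p = 0.0694) and 0.43 with 1422329_a_at (exact permutation p = 0.514). With arrays centred but not the series, r in PTIP+ animals was -0.12 with the main probe set, -0.18 with the mean of the 5 and 0.26 with 1425070_at, and 5 of the 6 measures were negative. On centred arrays most PTIP+ coefficients were thus positive only where the series were centred as well, and 0 of the 12 relations with both centrings passed after adjustment (lowest adjusted p = 0.167).

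A direct test did not separate the genotypes. The r of Wif1 with the main probe set in PTIP- minus that in PTIP+ animals was -0.39 (exact permutation p = 0.787 over 43758 assignments of the genotype labels to the deviations from the genotype means), and -0.56 when centred on the series (exact permutation p = 0.592). With the mean of the 5 probe sets the difference was 0.36 (exact permutation p = 0.374). By these 2 measures the data therefore do not show that the genes covaried more, or less, once PTIP was lost. The remaining Ntrk3 probe sets were not tested singly for such a difference. The test also takes the spread within each genotype as alike.

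Pooled over the series, all 10 pairs of Ntrk3 probe sets had positive coefficients in PTIP+ mice, and 7 of the 10 in PTIP- mice. In PTIP+ animals r of the 10 pairs ran from 0.65 to 0.96, with a median of 0.86, and rho from 0.74 to 0.98, and 8 of the 10 passed an adjusted p of 0.05 over 20 pairs. In PTIP- animals r ran from -0.76 to 0.89, with a median of 0.27, and rho from -0.77 to 0.66, and 4 of the 10 passed. Those were 1425070_at with 1455917_at (r = 0.89, permutation p = 0.00134, adjusted p = 0.00893), 1425071_s_at with 1422329_a_at (r = 0.71, adjusted permutation p = 0.0345), 1425071_s_at with 1425070_at (r = 0.72, adjusted permutation p = 0.0446) and, with the opposite sign, the main probe set with 1455917_at (r = -0.76, rho = -0.77, permutation p = 0.0110, adjusted p = 0.0233). By rho only the last of these 4 passed (adjusted permutation p = 0.0334), and the others had adjusted p from 0.0764 to 0.137. Centred on the series, r ran from 0.62 to 0.96 in PTIP+ and from -0.53 to 0.87 in PTIP- animals, and 5 of the 10 pairs and 1 of the 10 passed. The 1 was 1425071_s_at with 1425070_at (r = 0.83, adjusted exact permutation p = 0.0463), while the main probe set with 1455917_at had r = -0.53 (exact permutation p = 0.301, adjusted p = 0.376). The negative call of that pair was thus lost within series, and the pooled value rests in part on series 2, which was low in the main probe set and high in 1455917_at. Without the 2 animals farthest from the median of the first probe set of each pair, r ran from 0.29 to 0.99 in PTIP+ and from -0.75 to 0.75 in PTIP- animals, and the main probe set with 1455917_at kept -0.75.

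**Figure D4:**
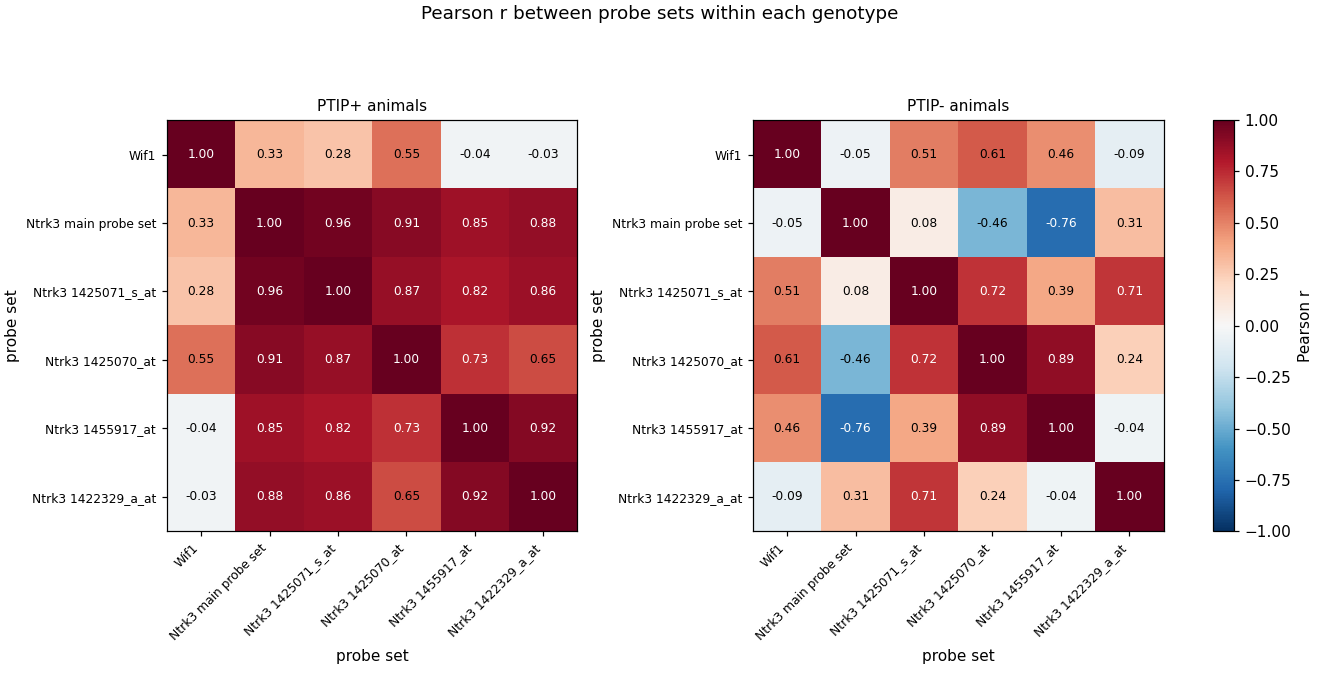
Pearson r (colour and number) between each pair of the 6 probe sets over the 8 PTIP+ (left) and the 10 PTIP- animals (right). All pairs of Ntrk3 probe sets lie between 0.65 and 0.96 on the left, while on the right they run from -0.76 to 0.89.

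The difference in r between the genotypes was then tested for each of the 10 pairs, a comparison added after the values were seen. It was -1.37 for the main probe set with 1425070_at (exact permutation p = 4.57e-05, adjusted p = 0.000457 over the 10 pairs) and -1.61 for the main probe set with 1455917_at (exact permutation p = 0.000754, adjusted p = 0.00377). These 2 pairs, both with the main probe set, passed the adjusted threshold, and with centred arrays so did the main probe set with 1425071_s_at (-1.16, adjusted exact permutation p = 0.00427). In 9 of the 10 pairs the coefficient was lower in PTIP- animals. The test takes the deviations of both genotypes as alike in spread. The SD in PTIP+ and PTIP- animals was 0.39 and 0.76 for the main probe set and 0.38 and 0.85 for 1425070_at. For 1455917_at it was 0.52 and 0.53. Unequal spread can therefore enter these p-values, as can shifts between the series. Centred on the series, the same 2 differences were -1.07 and -1.41, with exact permutation p of 0.0238 and 0.00867, and 0 of the 10 passed after adjustment (adjusted p = 0.119 and 0.0867), against 2 of the 10 unadjusted. Averaged over the pairs, r was 0.84 in PTIP+ and 0.21 in PTIP- animals, and 0.82 and 0.37 when centred on the series. Leaving out 1 animal at a time gave means from 0.77 to 0.91 in PTIP+ and from 0.024 to 0.24 in PTIP- animals, the lowest without PTIP- replicate 6.

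Between the scan number series, mean Wif1 was 8.37, 7.32 and 8.05 in PTIP+ and 4.66, 4.39 and 3.17 in PTIP- animals, for series 1 to 3. The mean of the main Ntrk3 probe set was 8.69, 8.72 and 9.31 in PTIP+ and 6.22, 5.15 and 6.11 in PTIP- animals. Of the variance within a genotype, 57.8% of Wif1 and 65.1% of the main probe set lay between series in PTIP+ (exact permutation p = 0.129 and 0.10), and 47.8% and 48.3% in PTIP- animals (exact permutation p = 0.104 and 0.0681). For 1425071_s_at, 1425070_at, 1455917_at and 1422329_a_at the share in PTIP- animals was 2.34%, 35.1%, 53.3% and 42.3% (exact permutation p = 0.932, 0.197, 0.0586 and 0.131). The share was greatest for 1422329_a_at and 1455917_at in PTIP+ animals, with 87.1% and 78.9% (exact permutation p = 0.0107 for each). After adjustment over the 12 comparisons of the 6 probe sets, or over 116 comparisons of the whole table, these 2 had adjusted p = 0.0643 and 0.0565, and the others lay higher. Over all 58 probe sets the median share was 72.3% in PTIP+ and 46.7% in PTIP- animals.

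Wif1 differed between genotypes by -3.71 within series 1, by -2.93 within series 2 and by -4.87 within series 3. For the main probe set the differences were -2.48, -3.57 and -3.20. The other 4 Ntrk3 probe sets differed most in series 3, as Wif1 did, by -2.97, -2.74, -2.50 and -1.62 in the order above. The interaction of genotype and series passed the threshold in limma for Wif1 (F = 6.21, adjusted p = 0.0473 over the 58 probe sets) and for 1455917_at (F = 6.24, adjusted p = 0.0473), whose differences were -1.44, -1.34 and -2.50. For the main probe set it did not (F = 1.56, adjusted p = 0.421). These 2 of 6 probe sets compare with 15.5% of the table. Without array weights the adjusted p of both was 0.197, and with centred arrays it was 0.214 for Wif1 and 0.412 for 1455917_at, while the main probe set then had 0.0430.

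Set among all probe sets of the table, the relation of Wif1 and the main probe set was not a close one. Over the deviations of the 18 animals from their genotype means, r was 0.020, which placed the main probe set at 34 of 57 in likeness to Wif1 and Wif1 at 43 of 57 in likeness to the main probe set; centred on the series as well, r was 0.26 and the places were 23 and 36. On centred arrays r was -0.41 and the places were 40 and 49. The Ntrk3 probe set most like Wif1 was 1425070_at, at place 2 of the 57 with r = 0.60 (permutation p = 0.0242, adjusted p = 0.106). Centred on the series, 1425071_s_at came before it, with r = 0.72 at place 3 against 0.70 at place 4. The median r was 0.15 with Wif1 and 0.32 with the main probe set, and on centred arrays -0.24 and 0.12. The permutations over the 18 animals, here and for the probe sets named next, stayed within genotypes but not within series. Shifts between series that a pair of probe sets shares therefore enter these p-values.

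Outside Ntrk3, the probe sets most like Wif1 were 1446622_at of A330068G13Rik, an uncharacterised transcript, with r = 0.78 and rho = 0.76 (permutation p = 7.0e-05 and 0.000210, adjusted p = 0.00760 over 114 relations, r = 0.64 without the 2 animals farthest in Wif1), 1429896_at of 5830408B19Rik with r = 0.60 and rho = 0.50 (permutation p = 0.0206 and 0.0478, adjusted p = 0.106, r = 0.22 without them) and Gdf5, a growth factor of the BMP family, with r = 0.57 and rho = 0.63 (permutation p = 0.00262 and 0.00306, adjusted p = 0.0299, r = 0.51 without them). Centred on the series they had 0.86, 0.53 and 0.78, and on centred arrays 0.61, 0.30 and 0.28. The first and the last of them had like coefficients in both genotypes, 0.86 and 0.79 for 1446622_at and 0.65 and 0.71 for Gdf5 in PTIP- and PTIP+ animals, whereas 5830408B19Rik had 0.87 and -0.37. Least like Wif1 was Prm1 (1439379_x_at), the sperm protamine, with r = -0.34 and rho = -0.36 (permutation p = 0.187 and 0.162, adjusted p = 0.402, r = -0.68 without the 2 animals farthest in Wif1). Its r was 0.11 when centred on the series, of the opposite sign, at place 30 of the 57.

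The probe sets most like the main probe set were others. They were Tspan32, a tetraspanin, with r = 0.79 and rho = 0.80 (permutation p = 0.000200 and 0.000210, adjusted p = 0.00760, r = 0.75 without the 2 animals farthest in the main probe set), Nell2, a secreted protein of neurons, with r = 0.78 and rho = 0.57 (permutation p = 0.00113 and 0.0182, adjusted p = 0.0184, r = 0.51 without them) and 1441491_at of A330068G13Rik with r = 0.78 and rho = 0.70 (permutation p = 0.00351 and 0.00219, adjusted p = 0.0336, r = 0.67 without them). Tspan32 was higher in PTIP- mice and the others lower, so these named rows included both directions of the genotype difference. Whether likeness followed that direction over the whole table was not tested. Centred on the series they had 0.75, 0.63 and 0.71. The A330068G13Rik probe set like Wif1 and the one like the main probe set are different rows with the same gene symbol.

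**Figure D5:**
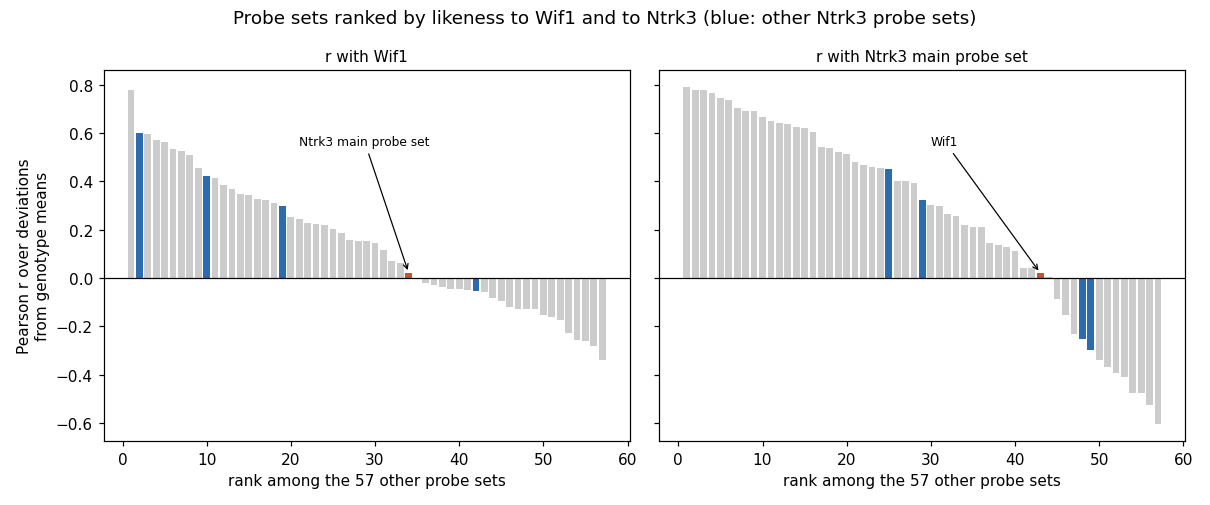
Pearson r over the deviations of the 18 animals from their genotype means (vertical axes) for the 57 other probe sets, ranked (horizontal axes), with Wif1 (left) and with the main Ntrk3 probe set (right); blue bars are other Ntrk3 probe sets and the orange bar is the pair of Wif1 and the main Ntrk3 probe set. That pair has r = 0.020 and stands at place 34 on the left and 43 on the right.

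Least like the main probe set was 1447723_at, a probe set without a gene symbol, with r = -0.60 and rho = -0.55 (permutation p = 0.0270 and 0.0281, adjusted p = 0.114), and -0.16 when centred on the series. In PTIP+ animals alone r had the opposite sign, 0.33, and 0.90 when centred on the series. Values of 1447723_at ran from 7.16 to 9.35 in PTIP+ animals and from 3.82 to 10.20 in PTIP- animals, where the median was 4.50. The 4 PTIP- animals of series 2 held values from 6.22 to 10.20, and the other 6 from 3.82 to 4.50. In PTIP- animals its r was 0.83 with 1425070_at and 0.88 with 1455917_at, against -0.72 with the main probe set. No p is given for these relations, since the row was named for being least like the main probe set. In the same animals 1425070_at and 1455917_at themselves had r of -0.46 and -0.76 with the main probe set, so the choice favoured positive values. The rho of 1447723_at with 1425070_at, 1455917_at and the main probe set was 0.53, 0.45 and -0.68. Without the 2 animals farthest in 1447723_at, r was 0.48, 0.80 and -0.82. The 3 coefficients were 0.89, 0.77 and -0.30 after centring on the series. What this row measures was not analysed here.

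Other genes of the Wnt and neurotrophin pathways were nearly all outside the table. Of 68 listed Wnt pathway genes 1 matched a row, Wif1 itself, and of 34 listed neurotrophin pathway genes 2 did, Ntrk3 and Egr3. Egr3, an early growth response transcription factor induced downstream of Trk receptors in neurons, ranged from 3.62 to 5.43 (median 4.47) in PTIP+ and from 5.38 to 7.19 (median 6.01) in PTIP- animals. Its groups overlapped by 1 PTIP- value below the highest PTIP+ value. The fitted difference of 1.73 (SE 0.23) comes from the contrast that selected the table and is given as a description.

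The Wif1 promoter is shown because Wif1 had the greatest decrease of the 58 probe sets. The 250 bases before the RefSeq start of Wif1, on the forward strand of GRCm38.p6 at chr10:121033754-121034003, are printed 5′ to 3′ with matches to the GC box GGGCGG on either strand (CCGCCC on the other) in capitals.
Wif1: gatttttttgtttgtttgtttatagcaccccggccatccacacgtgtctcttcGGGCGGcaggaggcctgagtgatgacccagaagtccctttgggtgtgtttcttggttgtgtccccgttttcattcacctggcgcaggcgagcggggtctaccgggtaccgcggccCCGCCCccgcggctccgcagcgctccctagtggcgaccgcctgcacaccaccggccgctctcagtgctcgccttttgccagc
This stretch is 62.8% G and C and holds 21 CG dinucleotides, against a median of 6 over the same stretch of the 32851 promoters in the RefSeq table, of which 16.3% hold at least as many. It has 2 matches to the GC box, which 32.7% of the promoters hold at least once. A match is a description of the letters and not of binding. Of the 2 genes, 1 matched an entry of the promoter table.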

How the data were processed

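RNA of glomeruli enriched fractions from 18 mice was measured on Affymetrix mouse arrays, 1 per animal. Values are on the log2 scale after the authors' RMA step. The processed file used here holds 58 probe sets that the authors selected, and the arrays' other probe sets were not read. Whether each of them met the authors' stated limits was not checked. In the fit made here some fell short of 2-fold, such as 1453841_at at -0.68. This table also holds the t-statistic, p-value and fold change of the authors' comparison, which were not used. All 18 value columns were mapped to animals by title, and 0 stayed unmapped. Members and lists were chosen with earlier results of these data known.

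Genotype and its interaction with scan number series were fitted to all 58 probe sets with limma 3.58.1 (R 4.3.3; arrayWeights, lmFit, eBayes), with Benjamini-Hochberg adjustment over the table. Correlations were tested by permutation with numpy 2.4.6 and scipy 1.17.1 (Python 3.11.15), exactly below 10 animals and within series, otherwise with 100000 resamples, and those over 18 animals by permutation within genotypes. Both steps were tested on simulated data. By rule, the text names Wif1, the 5 Ntrk3 probe sets, the 3 probe sets most and the 1 least like Wif1 and the main Ntrk3 probe set (1433825_at), pathway list members in the table and the probe set next in decrease. The alternatives tried were array weights, blocks, centring, the prior, call limits, coefficients, linear values and each animal left out. Centring arrays and series together, residuals against PTIP+ animals of the same series, the genotype test of each probe set pair and adjustment over 116 comparisons were chosen after seeing the data. Chromatin, staining and PCR data were not analysed here.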

Additional observations from a re-analysis of the deposited data

Results flagged for a closer look

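PTIP- replicate 6 stood apart in Ntrk3 probe set 1425070_at: its value of 7.77 lay above the next highest by 0.514 of the whole range of the 10 animals, where 0.466 is the critical value. It was the only such value in the 12 groups tested (6 probe sets in 2 genotypes), where chance gives 0.6, so 1 such value is near the number that chance gives. In the same animal Wif1 was second highest at 5.28, while the main Ntrk3 probe set, at 5.29, was not among the highest.

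The genotype difference of Wif1 differed between the scan number series (limma interaction, adjusted p = 0.0473), with -3.71, -2.93 and -4.87 in series 1, 2 and 3. That of Ntrk3 probe set 1455917_at did so as well (limma interaction, adjusted p = 0.0473), with -1.44, -1.34 and -2.50. Among all 58 probe sets 15.5% passed. Without array weights neither passed (limma, adjusted p = 0.197 for both), nor with centred arrays (limma, adjusted p = 0.214 and 0.412).

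The correlation of the main Ntrk3 probe set and 1425070_at differed between the genotypes, 0.91 in PTIP+ against -0.46 in PTIP- animals (exact permutation, adjusted p = 0.000457). So did that of the main probe set and 1455917_at, 0.85 against -0.76 (exact permutation, adjusted p = 0.00377). Centred on the series neither difference passed (exact permutation, adjusted p = 0.119 and 0.0867). The test takes the spread within each genotype as alike, and for the main probe set and 1425070_at it was wider in PTIP- animals.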

How the results depend on the processing

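All 6 genotype differences kept their direction under every alternative, and 5 of them their size of at least 2-fold; 1422329_a_at had -0.85 with centred arrays and between -1.58 and -0.97 with 1 animal left out, shortest of 2-fold without PTIP+ replicate 8. Centring brought the 6 genotype differences nearer to 0 by unequal amounts (Wif1 to -3.65, the main probe set to -2.55). The median of the table was 0.46 lower in PTIP- arrays, and most selected rows are decreases. With replicate numbers as a block the differences were -3.94 for Wif1 and -3.14, -2.50, -2.06, -1.61 and -1.07 for Ntrk3 in the order of the report, and 6 of 6 probe sets counted as decreased, as without the block. The deviations of same-numbered animals had r from -0.35 to 0.62, above 0.1 in 5 of 8 pairs, all 5 among the 6 pairs of 1 series. Since not every pair passed 0.1, and 6 of 16 animals correlated best with their own number, the numbers were not taken to pair the animals. Pairing within series was not excluded.

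In PTIP- animals r of Wif1 with Ntrk3, -0.054 by the main probe set, was 0.51, 0.61 and 0.46 by 1425071_s_at, 1425070_at and 1455917_at, 0.54 by the mean of 5, 0.17 centred on the series, 0.39 on linear values, -0.47 with centred arrays and -0.80 without the 2 animals farthest in Wif1. With 1 animal left out it ran from -0.69 (without replicate 2) to 0.14 (without replicate 7). Relative to PTIP+ animals of the same series it was -0.081. In PTIP+ animals r, 0.33 by the main probe set, was -0.035 and -0.034 by 1455917_at and 1422329_a_at, 0.73 centred on the series and -0.12 with centred arrays. It was 0.052 without PTIP+ replicate 5 and 0.52 without replicate 1. The difference between genotypes was 0.36 by the mean of 5, and its exact permutation p stayed between 0.247 and 0.787. The cause of these changes was not tested.

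The share of variance between series in PTIP- animals came to 59.1% for the main probe set and 84.6% for 1422329_a_at (from 42.3%) with centred arrays, and 22.2% for 1425071_s_at (from 2.34%). The unadjusted exact permutation p was then 0.0324 for the main probe set and 0.000952 for 1422329_a_at, against 0.0681 and 0.131 without centring. In PTIP+ animals the share of Wif1 was 37.6% with centred arrays, from 57.8%. With 1 animal left out the share ran from 42.1% to 66.6% for the main probe set, 29.1% to 64.8% for 1425070_at and 44.4% to 81.1% for 1455917_at in PTIP- animals, and from 40.6% to 89.8% for Wif1, 54.3% to 81.3% for the main probe set and 42.8% to 86.9% for 1425071_s_at in PTIP+ animals. For 1425071_s_at in PTIP- animals it ran from 1.71% to 13.1%. For 1425070_at in PTIP+ animals it ran from 14.4% to 49.9%, against 29.3% with all of them. Interaction F was 4.12 for Wif1 and 3.88 for 1455917_at without array weights, and with centred arrays 3.04, 1.67 and, for the main probe set, 6.66.

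Among pairs of Ntrk3 probe sets, the difference in r between genotypes changed sign for 1425071_s_at with 1422329_a_at (0.089 centred on the series) and for 1425070_at with 1455917_at (-0.13 by rho, -0.081 centred on the series); neither passed a test.

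The table holds only rows selected on genotype, so array level could not be judged from unselected genes. Low PTIP- values lie nearer the array background, where RMA compresses differences, and no detection calls were used. With 8 and 10 animals only large coefficients can pass, and within series the PTIP+ test cannot go below 0.0139. The series stand in the scan names alone, and what they mark is not given in the sources used here; 1 scan number stands in both a PTIP+ and a PTIP- name.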
